A study of Mus musculus with 24 samples.

Results

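Twf1, Twf2, Cfl1, Cfl2, Dstn, Pfn1, Pfn2, Tmsb4x, Tmsb10 and Capg, 10 genes whose products bind actin monomers or filament ends or sever filaments, were followed through RNA-seq of mouse satellite cells and myoblasts with reduced Chd4. They were picked by symbol from the 46078 genes of each expression table. The set was chosen on a measured value, because Twf2 was higher in cells from Chd4dPax7ER muscle and was not in the cultures. Values of Twf2 in these comparisons are therefore given as a description with no test, while the other 9 genes joined it as a listed family and were tested. All 10 passed the filter on low values in both tables.

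Actin filaments grow by addition of monomers at the barbed end and shrink as monomers leave the pointed end. Profilins carry ATP-loaded monomers to growing ends, beta-thymosins hold monomers in reserve, and proteins of the ADF/cofilin family sever and disassemble older filaments. Twinfilins bind monomers and barbed ends and act with capping protein, and CapG is a gelsolin relative that caps barbed ends. In muscle precursors this turnover serves migration, shape change and fusion, and cofilin 2 is the cofilin of skeletal muscle.

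The study used 16 RNA-seq libraries in 4 groups of 4, all from C57BL/6 mice aged 2 to 4 months. In vivo, satellite cells, the muscle stem cells, came straight from a sort for SCA1-/CD45-/α7-integrin+/CD34+ cells 3 days after cardiotoxin injury, from Chd4dPax7ER (case) or Chd4fl/fl (control) mice. In vitro, proliferating primary myoblasts of genotype Chd4fl/fl, derived from satellite cells of uninjured resting muscle, had received an adenovirus for Cre (AdCRE, case) or for GFP (AdGFP, control) for 72 h. Both culture groups received an adenovirus, but the case virus alone coded for Cre. What Cre or a difference between the viruses did in the cultures and what Chd4 loss did cannot be told apart. Pax7ER is named in the case genotype alone, and the sources used here do not say whether the Chd4fl/fl mice carried a Cre or were treated alike. Replicates are numbered 1 to 4 without a statement that they were separate cultures or animals, and the p-values thus reflect just the spread among these libraries, which may be technical. A further 8 ATAC-seq samples were not analysed here.

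Values are RPKM (reads scaled by gene length and library size), which can be set side by side between genes of a table, and which summed to 286802 to 306114 per library in vivo and 288659 to 326812 in vitro. Reads per library are unknown, but relative depth in vitro spanned 1 to 1.64 (AdGFP replicate 4). Chd4, which encodes the ATPase of the NuRD chromatin remodelling complex, held 44.9% of its control level in vivo and 27.7% in vitro (limma adjusted p = 0.000152 and 0.00374, groups apart in both). In the sorted cells all 9 satellite cell markers were tested, and their summed RPKM was higher in the case group (748 to 848 against 540 to 637). Of these, 3 rose (Itga7, which encodes the sorted integrin, Sdc4 and Myod1), 1 fell and 5 did not pass, with a median log2 fold change of 0.32. The 1 that fell was Pax7, at 11.5 against 21.3 RPKM with overlapping groups (limma adjusted p = 0.0301). The sum mostly reflects the 3 that rose, with means over the in vivo libraries of 249 (Itga7), 130 (Sdc4) and 98.8 RPKM (Myod1). Of all genes tested in vivo, 14.7% rose and 11.9% fell.

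Of the 10 genes, 9 had a RefSeq promoter window in GRCm38.p6, running from 250 bases before to 50 after the start of transcription; 11 windows matched, and Twf2 had none. The windows of the 2 profilin genes are shown because Pfn2 rose in vivo and Pfn1 did not pass. Both are read 5′ to 3′ on the minus strand, and capitals mark CG dinucleotides, the sites of DNA methylation.
Pfn2 chr3:57847708-57848007: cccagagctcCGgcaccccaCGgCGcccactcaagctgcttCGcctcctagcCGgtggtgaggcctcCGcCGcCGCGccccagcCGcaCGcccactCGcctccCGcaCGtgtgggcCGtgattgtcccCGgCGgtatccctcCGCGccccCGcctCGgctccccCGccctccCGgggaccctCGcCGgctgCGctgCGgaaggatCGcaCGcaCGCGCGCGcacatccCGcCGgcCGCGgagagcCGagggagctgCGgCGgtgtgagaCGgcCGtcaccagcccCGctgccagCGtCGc
Pfn1 chr11:70654601-70654900: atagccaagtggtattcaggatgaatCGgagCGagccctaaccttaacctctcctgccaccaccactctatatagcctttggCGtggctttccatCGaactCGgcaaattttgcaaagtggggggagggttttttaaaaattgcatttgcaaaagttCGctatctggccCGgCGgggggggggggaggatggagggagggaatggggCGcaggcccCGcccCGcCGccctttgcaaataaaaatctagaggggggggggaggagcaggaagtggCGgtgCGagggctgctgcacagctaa
The Pfn2 window held 45 CG dinucleotides at a GC content of 77.7%, and 98.1% of 32851 promoter windows of that length held fewer. The Pfn1 window held 14 at 57% GC, with 63.7% of windows below it. The median over all windows was 7 at 52.7% GC. Genes that did not rise in vivo also had CG-rich windows. Cfl2 held 38, Dstn 31, Twf1 26, Cfl1 22 and Tmsb4x 20, while Tmsb10 held 15, 31 and 30 in its windows and Capg 7. The E-box letters CANNTG, searched on both strands, occurred at 1 place in the Pfn2 window, at 2 in the Pfn1 window and in 72.3% of all windows. A CArG box, the motif of serum response factor, was found in none of the 11 windows and in 1.63% of all windows. These counts describe letters and are neither binding sites nor causes.

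**Figure D1:**
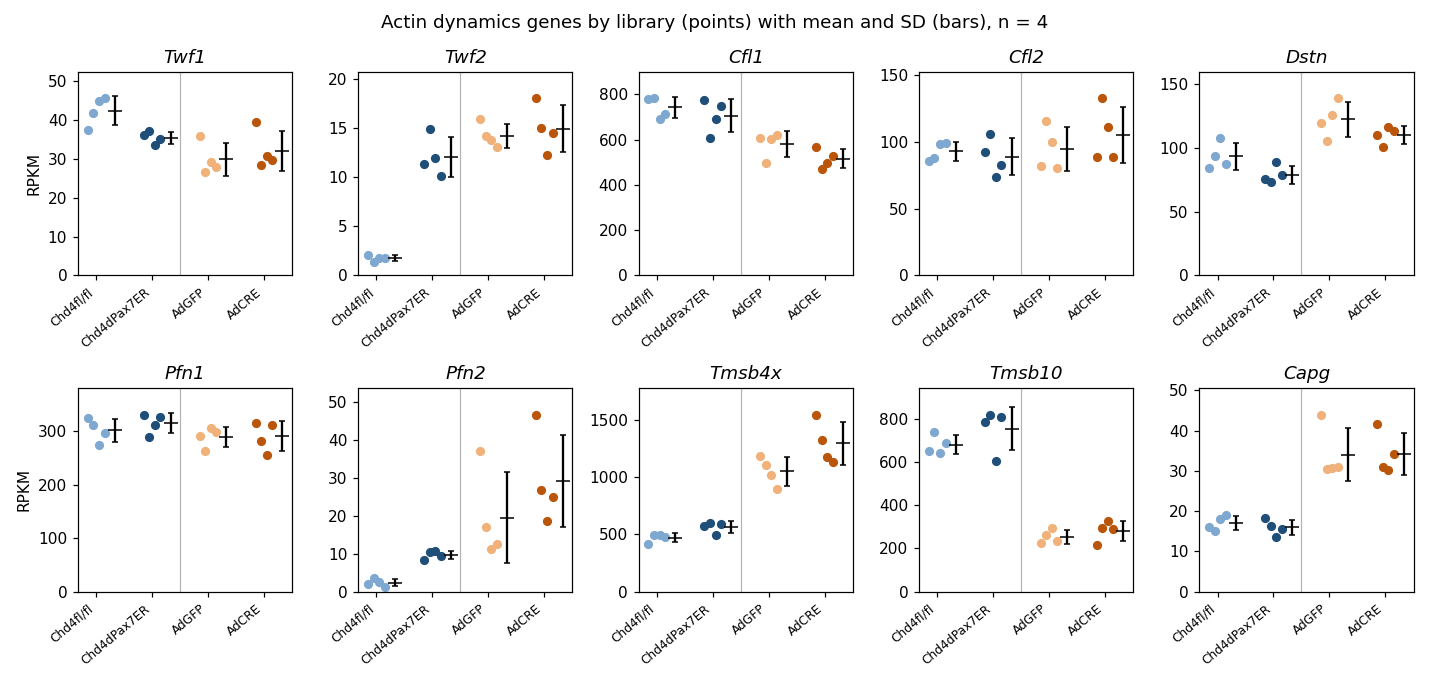
RPKM (vertical axes, linear, from 0) of the 10 genes in each of 16 libraries (points) with group mean and SD (black bars, n = 4); the vertical line separates the in vivo table (left) from the in vitro table (right), which were normalized separately. Twf2 ran from 1.41 to 2.08 in Chd4fl/fl and from 10.2 to 14.95 in Chd4dPax7ER, and Pfn2 from 1.28 to 3.57 and from 8.46 to 10.6.

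The twinfilin transcripts changed in opposite directions in vivo. Twf2 (ENSMUSG00000023277, chromosome 9, 106203108 to 106215387 in GRCm38.p6) encodes twinfilin-2. It measured 2.08, 1.41, 1.72 and 1.79 RPKM in Chd4fl/fl replicates 1 to 4 and 11.3, 14.95, 11.97 and 10.2 in Chd4dPax7ER replicates 1 to 4. Every case library was thus above every control library, replicate 2 being the highest of the case group and the lowest of the control group. The means were 12.1 ± 2.04 and 1.75 ± 0.275 RPKM (SD, n = 4), a ratio of 6.92 and a log2 fold change of 2.48 (SE 0.15) on the log2(RPKM + 0.5) scale. This scale understates changes of low genes, and the value was 2.72 with 0.1 and 2.25 with 1 in place of 0.5. In the cultures Twf2 measured 15.97, 14.2, 13.8 and 13.04 RPKM in AdGFP and 18.05, 15.04, 12.3 and 14.5 in AdCRE. There the groups overlapped, and AdCRE was higher in 3 of 4 same-numbered pairs (0.06, SE 0.12). The change in vivo exceeded that in vitro by 2.42 on the log2 scale, which is what the gene was chosen for.

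Twf1 (ENSMUSG00000022451, chromosome 15), which encodes twinfilin-1 and is the more abundant twinfilin transcript in all 4 groups, was lower in the case cells in vivo. It measured 37.5, 41.9, 44.9 and 45.6 RPKM in Chd4fl/fl and 36.1, 37.3, 33.6 and 35.03 in Chd4dPax7ER. No library of one group entered the range of the other, Chd4fl/fl replicate 1 and Chd4dPax7ER replicate 2 being the closest. Twf1 fell by 0.25 on the log2 scale (SE 0.08, limma adjusted p = 0.0392, 35.5 ± 1.56 against 42.4 ± 3.69 RPKM). The call did not hold without any 1 of Chd4fl/fl replicates 2, 3 and 4 and Chd4dPax7ER replicates 1, 3 and 4 (adjusted p up to 0.0994), with no filter on low values (0.0573) or with variances that do not follow the mean level (0.0810). In vitro it was 32.1 ± 5.07 in AdCRE and 29.8 ± 4.14 in AdGFP, higher in 4 of 4 pairs by 1.06 to 1.10 times, and did not pass (0.10, SE 0.13, adjusted p = 0.783; 0.0707 with the replicate number as a block).

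Among the profilins, Pfn2 rose in vivo and Pfn1 did not pass. Pfn2 (ENSMUSG00000027805, chromosome 3) encodes profilin-2, known chiefly from the nervous system. It measured 1.92, 3.57, 2.54 and 1.28 RPKM in Chd4fl/fl and 8.46, 10.4, 10.6 and 9.34 in Chd4dPax7ER. The lowest case library lay well above the highest control library. The means were 9.71 ± 0.999 and 2.33 ± 0.975 RPKM, a ratio of 4.17 and a log2 fold change of 1.91 (SE 0.23, limma adjusted p = 0.000658). The call held without each library in turn, at an adjusted p of up to 0.00287.

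In the cultures Pfn2 spread widely between replicate numbers. AdGFP replicates 1 to 4 measured 37.1, 17.0, 11.2 and 12.6 RPKM and AdCRE replicates 46.7, 26.7, 18.6 and 25.04. Replicate 1 was the highest in both groups and the groups overlapped, yet AdCRE was the higher in 4 of 4 same-numbered pairs, by 1.26, 1.57, 1.66 and 1.98 times. Without the pairing the change was 0.66 (SE 0.40, adjusted p = 0.480), but it passed with the replicate block (adjusted p = 0.00231). In vitro, same-numbered libraries deviated together from their group means, so the values are read within pairs as well. The change in vivo exceeded that in vitro by 1.25 (SE 0.48, adjusted p = 0.168, or 0.0163 with the block in the cultures).

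Pfn1 (ENSMUSG00000018293, chromosome 11), the widely expressed profilin, measured 325, 311, 274 and 296 RPKM in Chd4fl/fl and 331, 289, 312 and 326 in Chd4dPax7ER. The groups overlapped over most of their range (0.06, SE 0.07, adjusted p = 0.580). In the cultures it was 291 ± 28.2 against 289 ± 19.2 RPKM (0.01, SE 0.10, adjusted p = 0.988).

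**Figure D2:**
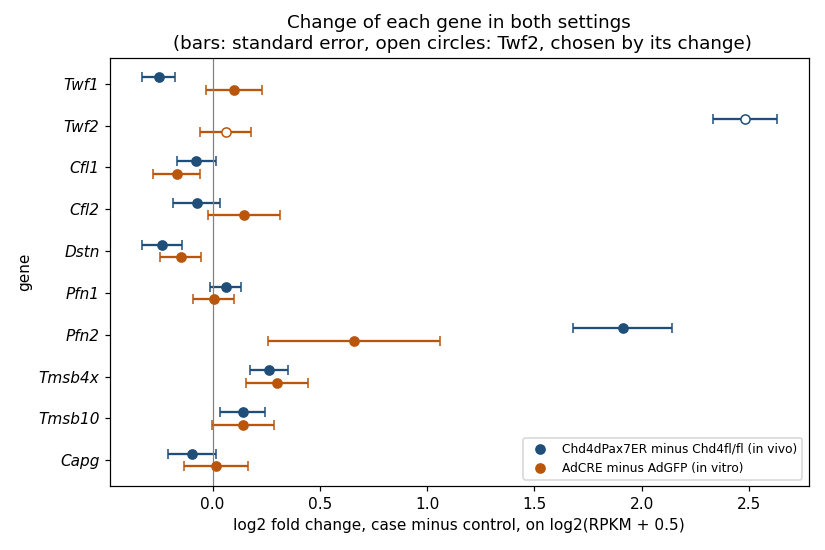
Log2 fold change with its standard error for each of the 10 genes in vivo (blue) and in vitro (orange), horizontal axis on the log2(RPKM + 0.5) scale. Twf2 (open circles, 2.48 and 0.06) and Pfn2 (1.91 and 0.66) lie far to the right in vivo, and the other 8 genes lie between -0.25 and 0.30 in both settings.

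Cofilin 1, cofilin 2 and destrin (ADF) form the filament-severing family, and none of their genes passed in vivo. Cfl1, the cofilin of most cells, measured 780, 782, 691 and 715 RPKM in Chd4fl/fl and 774, 608, 692 and 750 in Chd4dPax7ER (-0.08, SE 0.09, adjusted p = 0.572). Cfl2, the muscle form, ran from 85.8 to 99.0 RPKM in Chd4fl/fl and from 73.8 to 106.0 in Chd4dPax7ER, a range that enclosed the controls (-0.07, SE 0.11, adjusted p = 0.656). Dstn measured 84.0, 93.4, 108.0 and 87.6 RPKM in Chd4fl/fl and 75.3, 73.2, 88.9 and 78.5 in Chd4dPax7ER, where only replicate 3 reached the control range. Its change of -0.24 (SE 0.09) missed the threshold (adjusted p = 0.0934) and passed with TPM scaling (0.0438) or quantile scaling (0.0430).

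In the cultures Cfl2 and Dstn passed with the block, in opposite directions, and Cfl1 did not pass. Cfl1 was lower in AdCRE in 4 of 4 pairs, to between 0.824 and 0.951 of AdGFP (-0.17, SE 0.11, adjusted p = 0.508; 0.0535 with the block). Dstn was also lower in 4 of 4 pairs, at 110 ± 7.01 against 123 ± 13.8 RPKM (-0.15, SE 0.10, adjusted p = 0.505), and passed with the block (0.0450). Cfl2 was higher in 4 of 4 pairs, by 1.08 to 1.14 times (0.15, SE 0.17, adjusted p = 0.738), and passed with the block (0.0199).

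The beta-thymosins, the main monomer-sequestering peptides, were among the most abundant of the 10 transcripts. Tmsb4x, on the X chromosome, measured 418, 497, 493 and 480 RPKM in Chd4fl/fl and 573, 603, 493 and 595 in Chd4dPax7ER. Only case replicate 3 fell within the control range, and the change of 0.26 (SE 0.09) narrowly missed the threshold (adjusted p = 0.0539). It passed without that library (0.0199) or with a filter at 2 RPKM (0.0443). Tmsb10 measured 650, 739, 642 and 687 RPKM in Chd4fl/fl and 783, 818, 605 and 809 in Chd4dPax7ER. Replicate 3, at 605 RPKM, was again the low case library and lay below every control, and Tmsb10 (0.14, SE 0.11, adjusted p = 0.355) passed without it (0.0419).

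In vitro Tmsb4x measured 1186, 1104, 1018 and 898 RPKM in AdGFP and 1548, 1324, 1178 and 1137 in AdCRE. It was higher in AdCRE in 4 of 4 pairs, by 1.16 to 1.31 times (0.30, SE 0.14, adjusted p = 0.366), and passed with the block (0.00856). Tmsb10 was higher in 3 of 4 pairs and did not pass either way (0.14, SE 0.14, adjusted p = 0.696; 0.104 with the block). Capg, which encodes the capping protein CapG, ran from 15.1 to 19.0 RPKM in Chd4fl/fl and from 13.6 to 18.3 in Chd4dPax7ER (-0.10, SE 0.11, adjusted p = 0.558). Its change in vitro was 0.01 (SE 0.15, adjusted p = 0.979).

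Over the 9 tested genes in vivo, 1 rose (Pfn2), against 14.7% of 13344 genes tested, and 1 fell (Twf1), against 11.9%. Their groups did not overlap for those 2 genes, against 30.3% of all genes. These shares are near the background, so the counts say nothing particular about the list. In vitro 0 of 9 rose and 0 fell with limma, against 0.516% and 0.140% of 13567 genes, and none of the 9 had groups apart, against 10.0% of all genes. Of these 9 genes 0 had an unadjusted p under 0.05 in that fit. With the replicate block 3 rose (Cfl2, Pfn2 and Tmsb4x) and 1 fell (Dstn), against 17.5% and 18.7%. The difference between settings passed limma for 0 of the 9 genes (2 at an unadjusted p under 0.05), against 4.12% of the 11941 genes tested in both. With the block in vitro it passed for 2 (Pfn2 and Twf1, the latter at -0.35 with an adjusted p of 0.0290), against 10.8%.

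The levels kept much the same order within each table. In Chd4fl/fl Cfl1 (742 RPKM) and Tmsb10 (680 RPKM) stood first with overlapping libraries, followed by Tmsb4x (472 RPKM) and Pfn1 (302 RPKM). Dstn and Cfl2 (93.2 and 92.9 RPKM) overlapped, Twf1 and Capg came next, and Pfn2 and Twf2 were last and overlapped. In Chd4dPax7ER Tmsb10 (754 RPKM) and Cfl1 (706 RPKM) stood first, and Capg (15.95 RPKM), Twf2 (12.1 RPKM) and Pfn2 (9.71 RPKM) each overlapped the next at the bottom. In both culture groups Tmsb4x was first (1052 and 1297 RPKM), Cfl1 was next without overlap, and Tmsb10 (254 and 282 RPKM) overlapped Pfn1. Twf2 was again last, overlapping Pfn2 in AdGFP and lying below it in AdCRE.

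Shares within a family are taken inside a library. Twf2 made up 25.3 ± 2.70% of the summed twinfilin RPKM in Chd4dPax7ER and 4.00 ± 0.871% in Chd4fl/fl, while the sum itself was 47.6 ± 3.23 against 44.2 ± 3.57 RPKM with overlapping libraries. In the cultures its share was 31.9 ± 2.61% in AdCRE and 32.4 ± 1.70% in AdGFP. Pfn2 made up 3.01 ± 0.452% of the profilin sum in Chd4dPax7ER and 0.768 ± 0.318% in Chd4fl/fl. Pfn1 thus held at least 96.5% of that sum in every in vivo library. In vitro the Pfn2 share was 8.95 ± 2.74% and 6.25 ± 3.56%, and the groups overlapped. Cfl1 held 80.7 ± 2.37% and 79.9 ± 2.28% of the cofilin family in vivo, case and control. Tmsb10 held 57.0 ± 1.28% and 59.0 ± 1.84% of the beta-thymosin sum in vivo and 18.1 ± 4.11% and 19.6 ± 2.80% in vitro, with overlap in each setting.

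**Figure D3:**
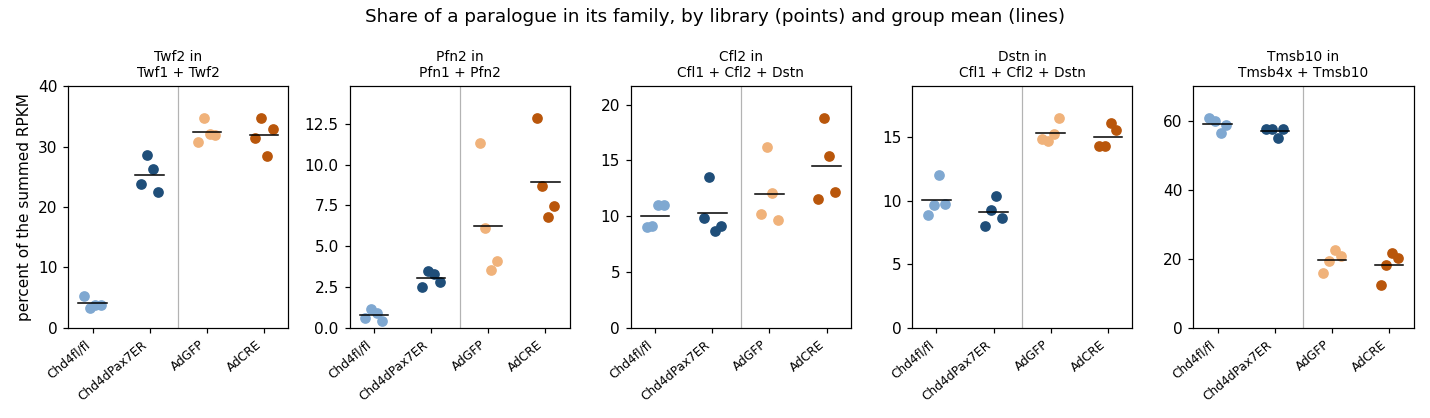
Share of 1 paralogue in the summed RPKM of its family (vertical axes in percent, from 0) in each library (points), with group means (lines). The Twf2 and Pfn2 shares separate the in vivo groups (25.3% against 4.00%, and 3.01% against 0.768%), while the other 3 shares overlap in both settings.

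Genes beside Twf2 were also higher in vivo. Tlr9, the endosomal receptor for unmethylated CpG DNA and the next annotated gene after Twf2 (7211 bases away), measured 0.410, 0.820, 0.480 and 0.420 RPKM in Chd4fl/fl and 3.27, 6.12, 3.29 and 4.01 in Chd4dPax7ER. All case libraries were above all controls, and replicate 2 was the highest of both groups (2.16, SE 0.23). Since 3 of 4 control libraries were under 0.5 RPKM, Tlr9 passed the filter through the case group, and its values are given with no p. Ppm1m, a protein phosphatase gene 3875 bases before Twf2, measured 0.950, 1.41, 1.44 and 2.06 RPKM in Chd4fl/fl and 2.92, 2.39, 4.12 and 3.41 in Chd4dPax7ER. These groups were also apart (0.92, SE 0.22, adjusted p = 0.0133). In the cultures Ppm1m was 6.93 ± 0.875 against 6.50 ± 0.864 RPKM (0.09, SE 0.12, adjusted p = 0.789), and Tlr9 stayed under the filter at 0.179 against 0.0551 RPKM.

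A window of 100 kb on each side was added after these values were seen. Alas1, the first enzyme of haem synthesis, lies 18068 bases beyond Twf2 and rose from 6.16 ± 0.481 to 11.9 ± 1.58 RPKM in vivo (0.89, SE 0.11, limma adjusted p = 0.000883). Wdr82 (0.02, SE 0.09, adjusted p = 0.910) and Poc1a (-0.46, SE 0.25, adjusted p = 0.210) did not pass. Of the 5 neighbours above the filter in vivo, 3 were called higher (Ppm1m, Alas1 and Tlr9) and 0 lower, against 14.7% and 11.9% of all genes. Tlr9 passed the filter through the case group, so its call carries no weight. The window also lies around a gene chosen for its change, and the count is a description. In vitro 0 of 4 passed limma (0 at an unadjusted p under 0.05). Tlr9 measured 19.7 to 58.2% of Twf2 in Chd4fl/fl libraries and 27.5 to 40.9% in Chd4dPax7ER, and 0.0857 to 1.72% over the culture libraries. The sources used here do not say whether reads were assigned by strand; the annotated genes do not overlap.

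**Figure D4:**
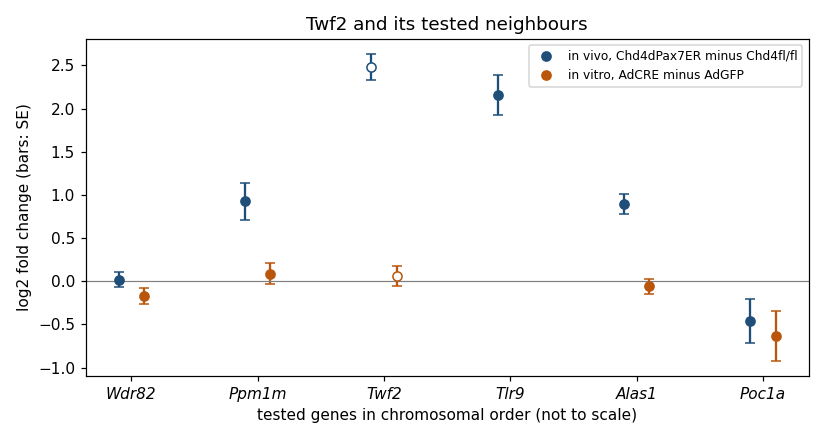
Log2 fold change with its standard error for Twf2 (open circles) and the genes within 100 kb that passed the filter in vivo, in chromosomal order and not to scale; blue is in vivo and orange in vitro, where Tlr9 was under the filter. In vivo Ppm1m (0.92), Twf2 (2.48), Tlr9 (2.16) and Alas1 (0.89) lie above 0 beside Wdr82 (0.02) and Poc1a (-0.46).

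Of 11931 genes tested in both settings, the 5 whose log2 values followed Twf2 most closely over the 8 in vivo libraries were Trp53inp1 (Pearson r = 0.998), Zbtb4 (0.996), Inka2 (0.994), Mapk12 (0.994) and Scd1 (0.994). These libraries share the contrast that chose Twf2, so such coefficients are descriptions. With each group mean removed they were 0.926, 0.845, 0.905, 0.755 and 0.899. The same 8 in vivo libraries picked these 5 genes by their r, so these values are descriptions as well. Over the 8 culture libraries the coefficients were 0.464, 0.632, 0.109, 0.283 and 0.779. Trp53inp1, a stress-induced p53 target, measured 44.2 ± 6.10 RPKM in Chd4dPax7ER and 13.3 ± 1.19 in Chd4fl/fl. Scd1, a fatty acid desaturase, measured 97.2 ± 20.3 and 28.4 ± 3.05 RPKM. Among the 9 listed genes Pfn2 had the highest r with Twf2 (0.925 in vivo and 0.836 in vitro). Twf1 had the lowest in vivo (-0.819, and 0.732 in vitro). These in vivo values hold the contrast that chose Twf2, and for the 9 genes none is given with group means removed. Within Chd4fl/fl, replicate 2 was the lowest for Twf2 (1.41 RPKM) and the highest for Pfn2 (3.57 RPKM). In Chd4dPax7ER, replicate 2 was the highest for Twf2 (14.95 RPKM), and Pfn2 measured 10.4 RPKM there, below replicate 3 (10.6 RPKM).

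Other actin pathway genes were taken from 10 lists with 109 genes, of which 108 were found and 94 tested in vivo. Of these, 18 rose, against 14.7% of all genes tested, 21 fell, against 11.9%, and 55 did not pass, with a median log2 fold change of 0.01 against -0.02 over all genes tested. In 3 of the 18 (Tmod2, Tmod4 and Was) and 2 of the 21 (Carmil1 and Fmn1), the lower group averaged under 0.5 RPKM and the filter was passed through the other group, which leaves 15 and 19. Without Chd4fl/fl replicate 1, 11 rose. Without Chd4fl/fl replicates 1, 2, 3 or 4 or Chd4dPax7ER replicate 3, 10, 10, 11, 13 and 13 fell. The shares of all genes called in these smaller fits are not given here, so the drops cannot be read as particular to actin genes. In vitro 0 of 86 rose and 0 fell with limma (7 at an unadjusted p under 0.05, median -0.01, and -0.01 over all genes), and with the replicate block 15 rose and 16 fell, against 17.5% and 18.7% of all genes.

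Of 16 capping and severing genes tested in vivo, 7 were called higher, against 14.7% of all genes, 4 lower, against 11.9%, and 5 did not pass (median 0.27). Tmod2 and Tmod4 of the higher and Carmil1 of the lower passed the filter through the group where they were high. The calls of these genes carry no weight. Tmod4, the tropomodulin of skeletal muscle, was at 3.88 ± 3.24 RPKM in Chd4dPax7ER and 0.395 ± 0.338 in Chd4fl/fl (2.12, SE 0.45). It passed the filter through the case group, with 3 of 4 control libraries under 0.5 RPKM, and its call carries no weight. Avil, which encodes advillin of the gelsolin family, rose from 1.94 ± 0.558 to 5.22 ± 0.585 (1.25, SE 0.18, adjusted p = 0.00132). Eps8, a barbed-end capper and bundler, fell from 7.08 ± 1.09 to 2.40 ± 0.380 (-1.39, SE 0.15, adjusted p = 0.000365). Capzb, the beta subunit of the capping protein that twinfilins bind, was the most abundant of the list and did not pass (85.6 ± 2.80 against 74.1 ± 6.22 RPKM, 0.21, adjusted p = 0.0565).

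For the counts of this list and of those that follow, 14.7% of all genes tested in vivo rose and 11.9% fell. Each list is small, so its counts are descriptions. Among relatives of the 10 genes, coronins and cyclase-associated proteins, 3 rose, 2 fell and 7 of 12 did not pass (median 0.19). Cotl1, which encodes the cofilin-like protein coactosin, rose from 5.61 ± 2.73 to 23.5 ± 4.13 RPKM (2.099, SE 0.34, adjusted p = 0.00239). Dbn1, the filament-binding drebrin, rose from 20.5 ± 1.63 to 33.1 ± 1.72 (0.68, SE 0.08, adjusted p = 0.000515), and the coronin gene Coro2b also rose (0.87, SE 0.22, adjusted p = 0.0178). In the cultures with the block Cotl1 (0.43, adjusted p = 0.00222) and Dbn1 (0.30, adjusted p = 0.00841) passed, while without it they did not (0.0675 and 0.194). Cap1, which recycles monomers from cofilin, did not pass in vivo (-0.11, SE 0.08, adjusted p = 0.343).

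Of the kinases and phosphatases that set cofilin activity, 1 rose, 3 fell and 8 of 12 did not pass in vivo (median 0.08). Rock2, a kinase upstream of LIM kinase, fell from 96.1 ± 6.46 to 64.3 ± 1.92 RPKM (-0.57, SE 0.06, adjusted p = 0.000418). Pak1 fell (-0.33, SE 0.09, adjusted p = 0.0224) and Limk2, a cofilin kinase, rose (0.47, SE 0.14, adjusted p = 0.0347). Pak1 missed the threshold without Chd4fl/fl replicates 1, 2 or 3 or Chd4dPax7ER replicate 2 (up to 0.0595). Limk2 missed it without any library but Chd4dPax7ER replicates 1 and 4 (up to 0.0830).

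Formins, which nucleate unbranched filaments, had 1 higher, 3 lower and 8 not passing of 12 in vivo (median -0.11). Fmnl1 rose from 6.34 ± 0.483 to 21.0 ± 1.66 RPKM (1.65, SE 0.09, adjusted p = 1.5e-05). Fhod3, the sarcomeric formin, fell from 4.76 ± 0.392 to 1.26 ± 0.733 (-1.66, SE 0.26, adjusted p = 0.00213). Fhod1 fell as well (-0.70, SE 0.18, adjusted p = 0.0199), but not without Chd4fl/fl replicates 1 or 4 (up to 0.0551).

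The Arp2/3 complex, which nucleates branches, had 2 higher, 1 lower and 6 not passing of 9 (median 0.0036); its most abundant subunit, Arpc2, did not pass (161 ± 7.16 against 160 ± 3.99 RPKM, adjusted p = 0.969). The passing subunits whose groups did not overlap, Arpc3 (0.21) and Arpc5l (-0.28), lost their calls without 7 and 4 of the 8 libraries in turn (adjusted p up to 0.0960 and 0.0741). Arpc1b passed with overlapping groups (0.26, limma adjusted p = 0.0444). Among activators of the complex 1 rose, 2 fell and 13 of 16 did not pass (median -0.0035). The 1 was Was, known from blood cells, at 0.927 ± 0.447 RPKM in Chd4dPax7ER and 0.148 ± 0.108 in Chd4fl/fl. Every control library was under the filter at 0.5 RPKM, so Was was tested through the case group alone and its call carries no weight. Both Nckap1 (-0.27) and Wasf2 (-0.25) of the WAVE complex fell, with calls lost without 5 and 6 of the 8 libraries in turn (up to 0.0915 and 0.0785).

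Of the crosslinkers 2 rose, 2 fell and 4 of 8 did not pass in vivo. Flna, the most abundant of the list, was at 150 ± 21.2 against 177 ± 9.90 RPKM and did not pass (-0.24, SE 0.10, adjusted p = 0.104). The alpha-actinin gene Actn1 fell (-0.34, adjusted p = 0.0205; 0.0605 without Chd4fl/fl replicate 2). Actn4 rose (0.20, adjusted p = 0.0291), a call lost without 6 of the 8 libraries in turn (up to 0.0903). Of 4 tropomyosin genes, Tpm1 fell from 137 ± 11.3 to 87.9 ± 10.5 RPKM (-0.64, SE 0.10, adjusted p = 0.00181). Tpm4 fell (-0.48, adjusted p = 0.0277; up to 0.0703 without Chd4fl/fl replicates 1 or 3). Tpm2 rose (0.69, adjusted p = 0.0466), a call lost without any Chd4fl/fl library or Chd4dPax7ER replicate 1 (up to 0.115).

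Of the 2 cytoplasmic actin genes Actb fell from 499 ± 18.3 to 397 ± 59.2 RPKM (-0.34, SE 0.11, adjusted p = 0.0433). The call was lost without any Chd4fl/fl library or Chd4dPax7ER replicate 3 (up to 0.106). Srf, the transcription factor that drives many actin genes with its MRTF cofactors, fell (-0.37, SE 0.09, adjusted p = 0.0191; 0.0539 without Chd4fl/fl replicate 4). In the cultures Actb (-0.30) and Srf (-0.30) did not pass without the block (adjusted p = 0.483 and 0.373) and passed with it (0.00902 and 0.0124).

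**Figure D5:**
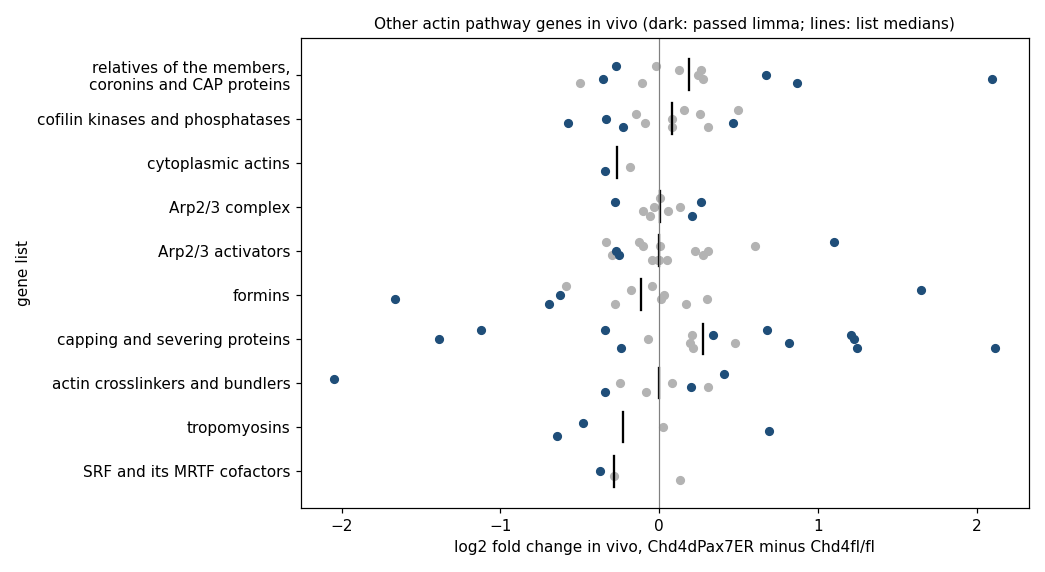
Log2 fold change in vivo (horizontal axis) of 94 tested genes in 10 actin pathway lists (vertical axis), dark where limma passed and grey where it did not, with list medians as lines. Points spread to both sides of 0 in most lists, with Fhod3 at -1.66 and Cotl1 at 2.099 among the largest changes.

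Markers of other cell states were read beside these results. For the counts below, 14.7% of all genes tested rose in vivo. In vitro 0.516% rose without the replicate block and 17.5% with it. The summed RPKM of 11 myogenic differentiation markers ran from 2043 to 4778 in Chd4dPax7ER and from 669 to 1310 in Chd4fl/fl, with 8 of 11 higher and none at 0 in all libraries. In vitro this sum ran from 1876 to 6645 in AdCRE and from 1428 to 5416 in AdGFP; 0 of 10 tested markers passed without the replicate block, and with it 10 of 10 rose (median 0.34). The leukocyte markers summed to 110 to 231 RPKM in Chd4dPax7ER and 84.5 to 171 in Chd4fl/fl, and 1 of 13 tested, Laptm5, rose; Ptprc, which encodes CD45, was at 0.410 against 0.323 RPKM. Pericyte and smooth muscle markers ran from 204 to 401 against 109 to 255 RPKM (2 of 5 tested higher, Cspg4 and, with overlapping groups, Rgs5). Fibroblast markers ran from 85.4 to 163 against 72.6 to 96.9 (1 of 5 higher, Dpt). Endothelial markers summed to 3.82 to 10.9 against 3.06 to 5.79 RPKM, and neutrophil markers to at most 1.78, with Ly6g and Retnlg at 0 throughout. The pericyte and endothelial sums mostly reflect 1 gene each, Acta2 and Tek (means over the in vivo libraries of 220 and 4.29 RPKM). Lyz2 (70.5) and Col3a1 (70.2) were the most abundant leukocyte and fibroblast markers. Each of these genes did not pass in vivo. In vitro the leukocyte sum ran from 19.1 to 29.0 RPKM in AdCRE and from 7.09 to 12.2 in AdGFP. The endothelial sum ran from 1.67 to 2.63 and from 0.850 to 1.16, while the pericyte, fibroblast and neutrophil sums overlapped. Without the block 0 of 3 tested leukocyte, 0 of 2 endothelial, 1 of 3 pericyte and 1 of 2 fibroblast markers rose. With so few genes tested, these counts are descriptions. The part of these markers in the differences of Twf2, Pfn2 and the pathway genes in vivo, and in the calls made with the block in vitro, was not tested. In such bulk libraries fewer cells of a type and less RNA per cell cannot be told apart.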

How the data were processed

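RNA-seq of 16 libraries was deposited by the authors as 2 tables of RPKM values, 1 for each setting, in vivo values being rounded to 2 decimals. The submitters' processing notes name HISAT2 2.1.0, cutadapt 1.18, FastQC 0.11.8 and Picard 2.18.15 with builds mm10 and GRCm38; the counting program and the gene lengths used are not named in those notes. Depth is unknown beyond relative depth in vitro. Genes at 0.5 RPKM or more in at least 4 of 8 libraries were fitted within each table as log2(RPKM + 0.5). The fit used limma 3.58.1 (R 4.3.3, trended moderated variances), with Benjamini-Hochberg adjustment over all genes tested and a threshold of 0.05. It was tried on simulated libraries drawn independently of each other. These lacked the pairing of the cultures, so the trial says nothing about fits to paired libraries. The difference between settings was fitted over all 16 libraries. Deviations of same-numbered libraries from their group means correlated at 0.711 to 0.856 in vitro, which pairs the cultures by number, and at -0.0967 to 0.0499 in vivo, where it does not.

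The 10 genes and all lists were chosen with earlier results of these data known. The text names the 10 genes, Chd4, the most abundant gene and up to 3 largest passing changes without overlap in each list, 5 genes most like Twf2 and its nearest neighbours; markers, Alas1, Wdr82 and Poc1a were added, and 1 gene the rule names is not reported here. Alternatives were other pseudocounts, filters, scalings and variance models, the block, and each library left out.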

Additional observations from a re-analysis of the deposited data

Results flagged for a closer look

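In 40 groups of 4 libraries (10 genes in 4 groups), 3 libraries stood apart from the others of their group by Dixon's gap test; chance flags about 1 in 20 groups. Tmsb10 was lowest in Chd4dPax7ER replicate 3, at 604.9 RPKM. Cfl1 was lowest in AdGFP replicate 2, at 494.6 RPKM, and AdCRE replicate 2 was also the lowest of its group. Capg was highest in AdGFP replicate 1, at 43.96 RPKM, and AdCRE replicate 1 was the highest of its group.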

How the results depend on the processing

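Beside the calls already described as gained or lost for Twf1, Dstn, Cfl2, Pfn2, Tmsb4x and Tmsb10, calls and directions of the 9 tested genes held under each alternative except as follows. In vivo the count of the 9 tested genes that rose was 2 with a filter at 2 RPKM and 1 to 3 with 1 library left out. The count that fell was 0 with no filter, 2 with TPM scaling, 2 with quantile scaling, 0 with no trend in the variances, 0 with the replicate block and 0 to 1 with 1 library left out. Of the actin pathway genes 11 to 16 rose and 10 to 19 fell in vivo with 1 library left out, and 12 fell with no trend. The shares of all genes called under these alternatives are not given here, so such shifts cannot be read as particular to the listed genes. With the replicate block in vitro, where the numbers pair the libraries, 3 of the 9 genes rose and 1 fell, and 15 pathway genes rose and 16 fell. The difference between settings passed for 2 genes with the replicate block in both settings and for 2 with the block in vitro only, an alternative chosen after seeing the data. In vivo, where the numbers share no deviation, the block moved the adjusted p of Twf1 to 0.0866 and ended no other member's call.

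Small changes reversed in sign. With 1 library left out, Cfl2 in vivo ran from -0.16 to 0.0093, and in vitro Twf1 ran from -0.0045 to 0.19, Pfn1 from -0.041 to 0.066 and Capg from -0.082 to 0.14. Differences between settings ran from -0.0051 to 0.10 for Pfn1, from -0.098 to 0.051 for Tmsb4x and from -0.12 to 0.10 for Tmsb10. Pfn1 was -0.037 in vivo with quantile scaling, and in vitro -0.020 with TPM scaling and -0.071 with quantile scaling. Capg in vitro was -0.011 with TPM scaling, and the Tmsb10 difference was 0.0008 with quantile scaling. The cause of each was not tested. Depth in reads is unknown, so how far counting error limits Twf2, Pfn2 and Tlr9, the lowest genes, cannot be given.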
